A study of Saccharomyces cerevisiae with 24 samples.

Results

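A pair of substitutions of the same histone H3 residue, leucine 126 to methionine (H3L126M) and leucine 126 to histidine (H3L126H), were compared directly in budding yeast grown in the glucose medium YPD. The comparison used 8 of the 24 mRNA-seq libraries of the series, 4 of H3L126M and 4 of H3L126H, chosen by their labels, and took in every gene. The 4 WT libraries in YPD entered the same fit and show on which side of WT each mutant lay, and the 8 libraries of both mutants in YPEG, a medium with ethanol and glycerol in place of glucose, gave a second view of the same strains. All strains descend from one MATa parent of the S288C background (BY4741, with his3Δ1, leu2Δ0, met15Δ0 and ura3Δ0, and a restored HHT2 locus), and each mutant is 1 named strain that carries its substitution in both H3 genes, so strain and substitution cannot be told apart. The 4 libraries of a strain are replicate experiments on that strain, and p-values measure the spread between them.

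Totals over ORFs were 10583360 to 12355689 counts in H3L126M, 9005368 to 11097582 in H3L126H and 11465913 to 13024479 in WT. Across genes, log2 CPM (counts scaled to library size) of libraries correlated at 0.994 to 0.995 within H3L126H, 0.988 to 0.995 within H3L126M and 0.958 to 0.995 within WT, against 0.964 to 0.977 between a library of one mutant and a library of the other. In WT, libraries 1 and 2 stood apart from libraries 3 and 4 in stress and reserve carbohydrate genes, and in H3L126M libraries 3 and 4 were above libraries 1 and 2 in the same genes. In H3L126H libraries 1 and 2 were the higher pair at GSY1, GLC3, TMA10 and AIM17, but not at BTN2 or HSP42. Several results in stress and reserve carbohydrate genes are also given without H3L126M replicates 3 and 4, or with only the 8 mutant libraries in the fit. The marker genes matched the labels: MET17 and URA3 had 0 counts in all 8 mutant libraries, LEU2 at most 1, and HIS3, whose his3Δ1 allele still gives RNA, had a normalized count of 334, 257, 406 and 443 in H3L126M and 476, 456, 514 and 501 in H3L126H. HIS3 was lower in H3L126M (log2 fold change -0.43 ± 0.14, SE, adjusted p = 0.0297), but left out 1 at a time, H3L126H replicates 1, 3 or 4 and H3L126M replicates 1 or 2 each cost the call (adjusted p up to 0.0777, log2 fold change -0.55 to -0.30). As background, MATa cells express the a-specific genes and repress the α-specific ones. In the 8 mutant libraries the a-specific MFA1 had normalized counts of 688 to 2004 and AGA2 of 387 to 1090. Of the α-specific genes, MF(ALPHA)2 had 33.1 to 75, STE3 92.1 to 185 and SAG1 366 to 541, so SAG1 overlapped AGA2.

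Histone H3 and H4 form the tetramer at the core of the nucleosome, and leucine 126 lies in the C-terminal part of H3, near the surface where the pair of H3 molecules meet. Yeast has a pair of genes for H3, HHT1 and HHT2, each transcribed divergently from a gene for H4, HHF1 or HHF2, and likewise a pair of gene pairs for H2A and H2B. The codon that was edited is shown with the end of both H3 genes, because the experiment turns on it. Bases are those of the unedited reference (sacCer3, RefSeq), read along the coding strand, and the capitals mark codon 126, counted without the initiator methionine. HHT1 (YBR010W, the whole gene at chrII:256331-256741) ends at chrII:256679-256741 on the + strand, and HHT2 (YNL031C, chrXIV:575640-576050) at chrXIV:575640-575702 on the - strand. Both are coding sequence up to the stop codon.
HHT1: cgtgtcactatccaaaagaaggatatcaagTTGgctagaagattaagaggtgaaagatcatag
HHT2: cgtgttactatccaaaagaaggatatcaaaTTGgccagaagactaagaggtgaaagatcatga
The 2 windows of 63 bases differ at 6 positions, and both carry TTG at codon 126. Counts per ORF do not show which codon a library carries, so the edit itself was not checked here.

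The mutants differed widely in number of genes and narrowly in size. Of 5976 genes tested, 2132 passed an adjusted p below 0.05 (edgeR quasi-likelihood test, 35.7%). H3L126M was higher at 970 genes (16.2%) and lower at 1162 (19.4%), and these percentages are the background for every list below. With a change of at least 2-fold, 63 genes were higher (1.05%) and 93 lower (1.56%). The median size of the log2 fold change was 0.441 over called genes and 0.225 over all genes, and 87.4% of genes were within 1.5-fold. The 4 libraries of each mutant did not overlap at 1178 genes that were higher in H3L126M (19.7%) and 1361 that were lower (22.8%).

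**Figure D1:**
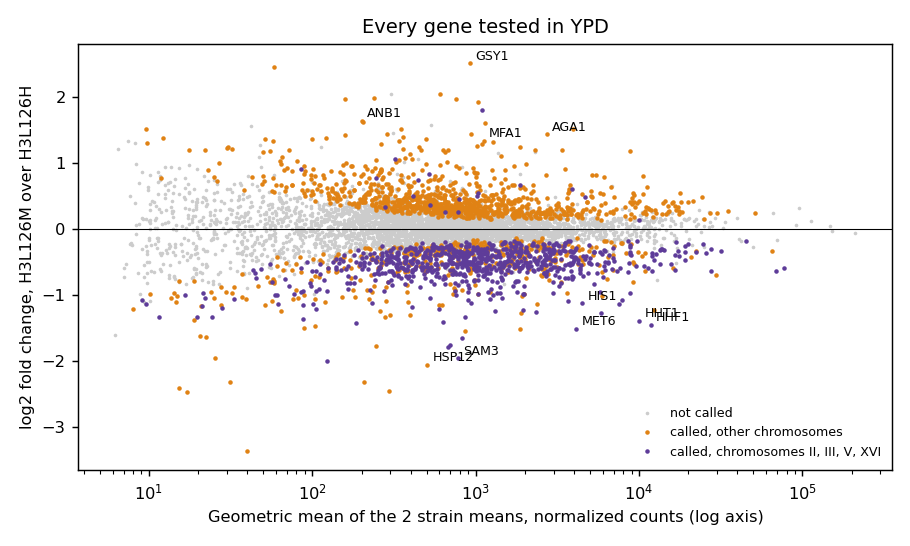
Each point is 1 of 5976 genes, placed by its level (geometric mean of the 2 mutants' mean normalized counts, log axis) and by the log2 fold change of H3L126M over H3L126H in YPD. Called genes of chromosomes II, III, V and XVI lie almost all below 0, with 769 lower and 18 higher, and called genes elsewhere lie on both sides.

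The calls were unevenly spread over the genome. Chromosomes II, III, V and XVI hold 21.4% of the genes tested, but 66.2% of the genes lower in H3L126M and 1.86% of those higher. On chromosome II the median gene was lower in H3L126M by a log2 fold change of -0.42, which is 1.34-fold higher in H3L126H, and 91.0% of its 400 tested genes had a negative value. Chromosome XVI was alike, with a median of -0.41 and 92.1% of 455 genes negative. The shifts were smaller on V (median -0.28, 79.2% of 274 genes) and III (median -0.19, 78.0% of 150 genes). The positive medians were 0.18 on IX, 0.17 on VII, 0.14 on IV, 0.12 on XV and 0.12 on VI, and the other 7 chromosomes had medians from -0.02 to 0.08.

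The chromosome medians were tight among libraries. Taken in each library as the median distance of a chromosome's genes from their mean over the 8 libraries, chromosome II lay between -0.221 and -0.201 in H3L126M and between 0.200 and 0.228 in H3L126H. Chromosome XVI lay between -0.202 and -0.183 and between 0.202 and 0.225. The 4 libraries of a mutant did not overlap those of the other on 15 of 16 chromosomes, the exception being I. On those 15 the exact permutation test gave its smallest two-sided value for 4 against 4 libraries, p = 0.0286 (adjusted p = 0.0305 over 16 chromosomes), so the test does not rank them, and on VIII, X, XII, XIII and XIV the difference was at most 0.041 in size. Relative to WT, the medians of H3L126M were 0.01 on II, 0.04 on III, -0.02 on V and 0.00 on XVI, and those of H3L126H were 0.42, 0.21, 0.23 and 0.41.

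The shift ran along the whole of each chromosome. In stretches of 25 consecutive tested genes, the median was negative in 16 of 16 stretches of chromosome II (-0.53 to -0.26), 18 of 18 of XVI (-0.55 to -0.27), 10 of 10 of V (-0.35 to -0.13) and 6 of 6 of III (-0.25 to -0.14). It was positive in 29 of 29 stretches of IV (0.04 to 0.32) and 21 of 21 of VII (0.02 to 0.28). The same 4 chromosomes had the lowest medians in YPEG, at -0.42 on II, -0.39 on XVI, -0.30 on III and -0.24 on V. The libraries hold RNA, and whether the strains differ in the number of copies of these chromosomes was not tested. With the chromosome medians taken out of the fit, 1238 genes were called (20.7%), 584 higher (9.77%) and 654 lower (10.9%), and 983 of the 2132 genes were among them. Scaling the libraries on the other 12 chromosomes moved all values by -0.075 and the split of calls from 45.5% to 29.6% higher (624 genes, 10.4%, higher and 1483, 24.8%, lower), so counts of rises against falls hold for one scaling only.

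**Figure D2:**
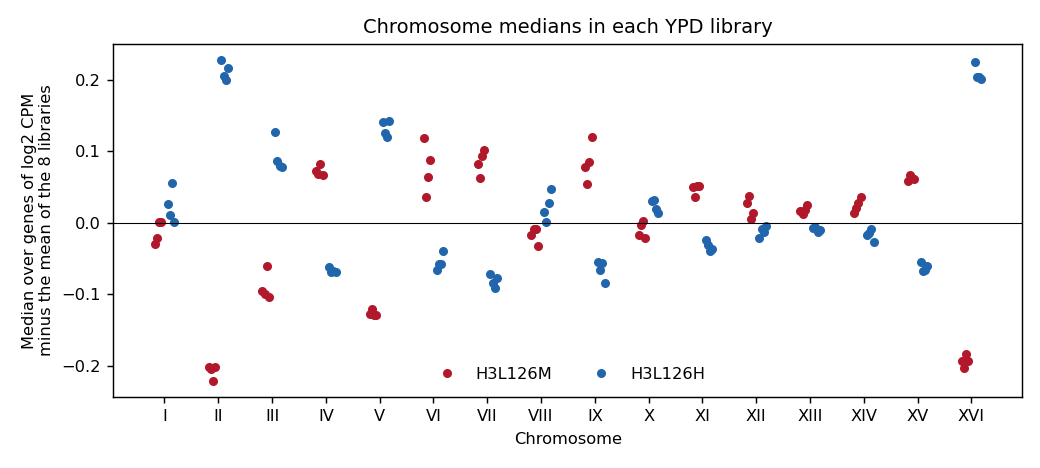
Each point is 1 YPD library, and its height is the median over a chromosome's tested genes of log2 CPM minus the mean of the 8 mutant libraries. The H3L126M points lie below the H3L126H points on II, III, V and XVI and above them on IV, VI, VII, IX and XV, with the widest gap on II.

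The histone genes were lower in H3L126M as a group. Of 11 genes for core histones, variants and linker histone, 10 were lower and 0 higher, and the median log2 fold change was -0.60, against 0.01 over all genes tested. The smallest p-values of the whole comparison belonged to the divergent H3-H4 pair on chromosome II. HHF1, which encodes H4, had normalized counts of 7567, 7138, 7445 and 6351 in H3L126M against 19509, 19210, 19774 and 19234 in H3L126H (-1.45 ± 0.06, adjusted p = 8.49e-09). HHT1, the edited H3 gene shown above, had 6370, 6307, 6600 and 5496 against 16669, 16304, 16182 and 15920 (-1.39 ± 0.06, adjusted p = 8.49e-09). In both genes the lowest H3L126H library was more than 2-fold above the highest H3L126M library.

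The other H3-H4 pair, on chromosome XIV, moved less. HHT2 fell by 0.59 ± 0.09 on the log2 scale (adjusted p = 0.000168), from 19558 to 20352 in H3L126H to 12510 to 13705 in H3L126M. HHF2 fell by 0.81 ± 0.07 (adjusted p = 2.46e-06). HHT1 and HHT2 share stretches of sequence, as do HHF1 and HHF2 (unique share, the percentage of 50-base windows found once in the genome, 87.8% and 78.7%), so reads of these stretches can be placed on either copy. Of the H2A and H2B genes, HTA2 (-1.27 ± 0.14, adjusted p = 2.32e-05) and HTB2 (-1.13 ± 0.07, adjusted p = 2.26e-07) lie on chromosome II. HTA1 (-0.40 ± 0.13, adjusted p = 0.0249) and HTB1 (-0.21 ± 0.08, adjusted p = 0.0464) lie on chromosome IV.

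Those last calls were weak. HTA1 lost its call without H3L126H replicate 3 (adjusted p = 0.051), and HTB1 lost it when any single mutant library other than H3L126M replicate 3 was left out (adjusted p up to 0.0967, log2 fold change -0.24 to -0.19). H3L126M replicate 4 was the lowest library at HTA1 (4362 against 6172 to 7113) and at HTA2 (2518 against 3792 to 4504). The H2A variant gene HTZ1 was lower by -0.36 ± 0.06 (adjusted p = 0.000774) and the linker histone gene HHO1 by -0.55 ± 0.07 (adjusted p = 5.87e-05), whereas CSE4, for the centromeric H3 variant, overlapped between mutants and did not pass the test (-0.13 ± 0.09, adjusted p = 0.287).

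WT lay between the mutants at HTA2, HTB2, HHT2 and HHF2 in mean level. At HTB1 WT was above both mutants (mean 11060, against 7277 in H3L126M and 8411 in H3L126H). At HTA1 WT (mean 8012) was near H3L126H (7941). HHF1 in WT (6972 to 7507) overlapped H3L126M, and HHT1 in WT (7870 to 7943) was above it (log2 fold change of H3L126M over WT -0.35, adjusted p = 0.00099). After the chromosome medians were removed, 9 of the 11 genes were still lower, with HHT1 at -0.98 and HHF1 at -1.04. HHO1, on chromosome XVI, moved to -0.14 and lost its call (adjusted p = 0.16). In YPEG the group was less uniform, with 4 members lower, 1 higher and a median of -0.09, where 23.4% of all genes were lower and 19.7% higher.

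**Figure D3:**
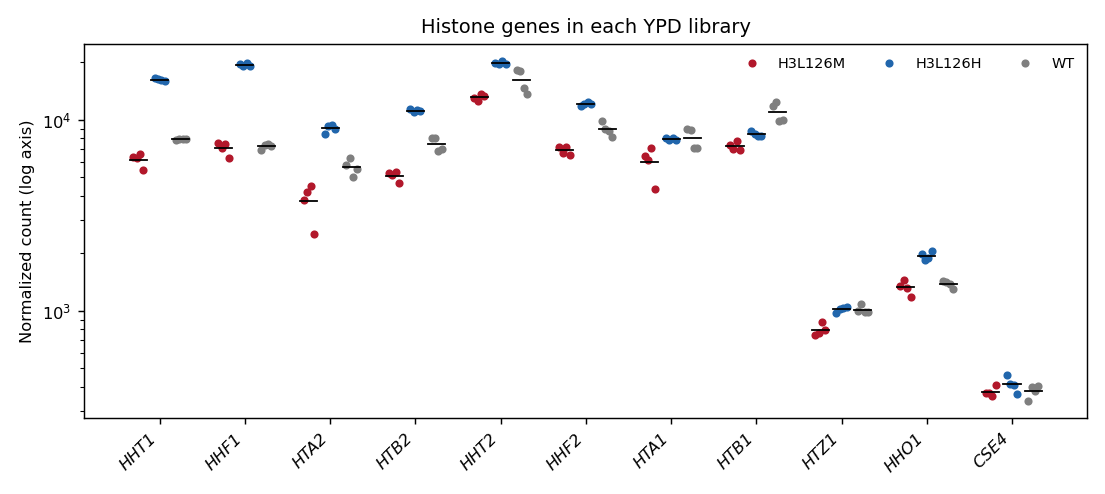
Points are the normalized counts of 11 histone genes in single YPD libraries (log axis), in red for H3L126M, blue for H3L126H and grey for WT, and black bars are means of 4. The first 4 genes, on chromosome II, show the widest gaps between mutants, and CSE4 shows overlap.

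Genes of mating were higher in H3L126M. In a MATa cell, a-factor is made from MFA1 and MFA2, α-factor is sensed by the receptor Ste2, and the signal passes through the G protein and a MAP kinase cascade to the transcription factor Ste12, which binds pheromone response elements. Of 32 genes of mating type and pheromone response, 18 were higher and 0 lower, with a median of 0.42. Of the 6 genes that mark the a cell, 5 were higher. The secreted a-factor gene MFA1 (chrIV:1385176-1385286) had the smallest p of all rises. Its normalized counts were 1670, 1694, 2004 and 1760 in H3L126M and 709, 728, 698 and 688 in H3L126H (1.34 ± 0.08, adjusted p = 2.3e-07). WT, at 1259 to 1592, lay between.

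The a-agglutinin genes rose too. AGA1, the anchor subunit, had 4974, 4947, 3830 and 4247 against 1702, 1564, 1662 and 1699 (1.44 ± 0.13, adjusted p = 7.47e-06), with WT at 1338 to 2095. AGA2, the adhesive subunit, had 945, 900, 1090 and 958 against 387, 419, 446 and 471 (1.18 ± 0.10, adjusted p = 3.85e-06). In both genes the lowest H3L126M library was above 1.5 times the highest H3L126H library. The receptor gene STE2 was higher by 0.82 ± 0.17 (adjusted p = 0.00267) and BAR1, which encodes the protease that degrades α-factor, by 0.83 ± 0.19 (adjusted p = 0.00449). The Gα subunit gene GPA1 (0.64 ± 0.09, adjusted p = 0.000107) and SST2, which encodes the GTPase activator that desensitizes the pathway (1.0 ± 0.14, adjusted p = 0.000169), act within the cascade.

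MFA2 changed little (0.30 ± 0.10, adjusted p = 0.0321), and its call was lost without H3L126H replicate 1, 2 or 3 or H3L126M replicate 2, 3 or 4 (adjusted p up to 0.0986, log2 fold change 0.27 to 0.33). It was lost as well with the libraries scaled on the other 12 chromosomes (0.22). Of the 4 genes that mark the α cell, 2 were higher and 0 lower. The lowest value of the 4, -0.83, was that of MF(ALPHA)1, which was not called. With only the 8 mutant libraries in the fit, 2 of the 4 were higher and 2 lower, against 23.1% and 24.1% of all genes. STE3, the a-factor receptor of α cells, had 172, 158, 139 and 185 in H3L126M against 108, 116, 109 and 92.1 in H3L126H and 36.0 to 48.6 in WT (0.62 ± 0.14, adjusted p = 0.00324). MF(ALPHA)2 was higher by 0.59 ± 0.19 (adjusted p = 0.0266), a call that was lost without H3L126H replicate 1 or 4 or H3L126M replicate 1 or 3 (adjusted p up to 0.0831). The α-agglutinin gene SAG1 had a log2 fold change of -0.27 ± 0.11 (adjusted p = 0.0671). With chromosome medians removed, 15 mating genes were higher and 0 lower. Without H3L126M replicates 3 and 4, again 15 were higher and 0 lower, against 9.81% and 13.6% of all genes in that fit.

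The letters TGAAACA, the core of the pheromone response element, were searched on both strands in the 400 bases before each start codon. They occurred in 14 of the 18 genes that rose (77.8%), against 9.90% of all 5988 windows. The list was chosen for its known response to pheromone, so this share describes the list. Windows of 30 bases around the match nearest to the start codon are shown for 4 of the genes above, on each gene's own strand with the match in capitals (TGTTTCA is the same element on the other strand).
MFA1: cattcacgatcTGTTTCAgtgttcagaaaa
AGA1: acataattttcTGAAACAatattaaaacat
AGA2: aattaagggacTGTTTCAtaccttcagatc
SST2: atattcaatttTGAAACAatgatcccaata
The windows are at chrIV:1384853-1384882 (+), chrXIV:703486-703515 (+), chrVII:437014-437043 (-) and chrXII:1041593-1041622 (-), and the matches begin 312, 202, 199 and 245 bases before the start codons of MFA1, AGA1, AGA2 and SST2.

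Genes of NAD synthesis were also higher in H3L126M. NAD is made in yeast from tryptophan by the kynurenine (BNA) pathway or salvaged from nicotinic acid and its riboside. Of 15 genes, 9 were higher and 0 lower, with a median of 0.39. Transporters and enzymes moved alike. TNA1, the nicotinic acid permease gene, had 2997, 2963, 2960 and 2467 against 1901, 1821, 1709 and 1715 (0.67 ± 0.07, adjusted p = 1.42e-05). The gene of the nicotinamide riboside transporter, NRT1, was higher by 0.55 ± 0.06 (adjusted p = 3.04e-05), that of the salvage enzyme nicotinate phosphoribosyltransferase, NPT1, by 0.47 ± 0.06 (adjusted p = 4.59e-05), and that of the kynurenine pathway enzyme BNA7 by 0.84 ± 0.10 (adjusted p = 3.96e-05). TNA1, NRT1 and BNA7 were above WT in H3L126M (log2 fold changes 0.31, 0.40 and 0.34). In H3L126H, TNA1, BNA7 and NPT1 were below WT (-0.36, -0.50 and -0.59). In YPEG 8 of the 15 were higher and 1 lower.

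Genes of reserve carbohydrates included GSY1, the largest rise named, and here the libraries of H3L126M and WT were uneven. Yeast stores glucose as glycogen and trehalose, and these genes respond to stress and to glucose through the transcription factors Msn2 and Msn4. Of 17 genes of trehalose and glycogen, 7 were higher, 1 was lower, and the median was 0.61. The glycogen synthase gene GSY1 (chrVI:174265-176391) had 1585, 1207, 3388 and 2671 in H3L126M, 523, 439, 310 and 274 in H3L126H, and 5884, 5128, 1644 and 860 in WT (2.51 ± 0.54, adjusted p = 0.00276). The branching enzyme gene GLC3 had 1394, 1049, 3057 and 2673 against 678, 659, 490 and 513 (1.80 ± 0.51, adjusted p = 0.0151), with 3196, 2864, 809 and 500 in WT. In both genes all 4 H3L126M libraries were above all 4 H3L126H libraries. Replicates 3 and 4 were the higher pair in H3L126M and the lower pair in H3L126H, so the gap between mutants was wider in replicates 3 and 4.

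Other members changed less. The trehalose phosphatase gene TPS2 was higher by 1.21 ± 0.31 (adjusted p = 0.00882), the gene of the phosphatase subunit that targets glycogen synthase, GAC1, by 1.05 ± 0.25 (adjusted p = 0.00506), and the UDP-glucose pyrophosphorylase gene UGP1 by 0.61 ± 0.17 (adjusted p = 0.0129). GSY2, for the other glycogen synthase, did not overlap between mutants but missed the threshold (0.83 ± 0.41, adjusted p = 0.126), and TPS1 overlapped (-0.04 ± 0.22, adjusted p = 0.914). The one lower member, the trehalase gene NTH2 on chromosome II (-0.54 ± 0.10, adjusted p = 0.000854), moved to -0.13 once chromosome medians were removed. Without H3L126M replicates 3 and 4, a single member of the list was higher, GSY1 (1.85, adjusted p = 0.046), while GLC3 was at 1.06 (adjusted p = 0.22) and TPS2 at 0.97 (adjusted p = 0.093). With only the 8 mutant libraries in the fit, so that the spread of WT did not enter, 10 members were higher and 3 lower, against 23.1% and 24.1% of all genes in that fit.

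Chaperone genes split in both directions. Of 29 heat shock and chaperone genes, 2 were higher and 8 lower, with a median of -0.15. With only the 8 mutant libraries in the fit, 6 were higher and 11 lower, against 23.1% and 24.1% of all genes. Without H3L126M replicates 3 and 4, 0 were higher and 7 lower, against 9.81% and 13.6% of all genes. BTN2, which gathers misfolded proteins, had 1410, 1056, 1869 and 1686 against 383, 339, 393 and 421 (1.97 ± 0.47, adjusted p = 0.00587). WT had 6868, 5948, 1685 and 1063, with replicates 1 and 2 above both mutants and replicates 3 and 4 within the range of H3L126M. HSP42, a small heat shock protein gene, was higher by 1.32 ± 0.43 (adjusted p = 0.0275), a call lost without any 1 of the 4 H3L126H libraries or without H3L126M replicate 3 or 4 (adjusted p up to 0.0682), and without that pair together it was at 0.94 (adjusted p = 0.22). The disaggregase gene HSP104 was higher in H3L126M without overlap between mutants but missed the threshold (0.66 ± 0.38, adjusted p = 0.193). It passed with only the 8 mutant libraries in the fit (adjusted p = 3.3e-06). HSP12, a membrane-protecting small protein gene of the stress response, went the other way, with 168, 175, 425 and 221 in H3L126M, 1131, 1100, 970 and 923 in H3L126H and 48.9 to 235 in WT (-2.06 ± 0.35, adjusted p = 0.000611).

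HSP26, a small heat shock protein gene on chromosome II, was lower as well, with 393, 397, 416 and 339 in H3L126M, 870, 1070, 1075 and 1069 in H3L126H and 127 to 470 in WT (-1.40 ± 0.32, adjusted p = 0.00405). This gene was added after its values were seen. It was at -0.99 once chromosome medians were removed (adjusted p = 0.0406).

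Smaller falls were those of the Hsp110 protein SSE1 (-0.63 ± 0.07, adjusted p = 3.35e-05), the Hsp90 cochaperone AHA1 (-0.45 ± 0.05, adjusted p = 4.47e-05), the Hsp70 SSA3 (-0.83 ± 0.14, adjusted p = 0.000534) and the mitochondrial chaperonin HSP10 (-0.47 ± 0.09, adjusted p = 0.000933). SSE1 and SSA3 lie on chromosomes XVI and II. The stress response element, AGGGG on either strand, occurred in the 400 bases before 28.9% of all start codons and before 5 of the 7 reserve carbohydrate genes that rose (71.4%) and 0 of the 1 that fell. Reserve carbohydrate genes are known to respond to stress, so their share describes the list. Among chaperone genes the element occurred before 1 of the 2 that rose and 2 of the 8 that fell (25%). A pair of genes that hold it and went in opposite directions are shown with the match nearest to the start codon in capitals.
GSY1: ccacaagtaataCCCCTtggaggatttttc
HSP12: gttccggtcgtcCCCCTcttgatctgaaag
The windows are at chrVI:176706-176735 (-) and chrVI:107054-107083 (+), and HSP12 has 3 matches in its 400 bases against 1 before GSY1.

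Of 21 hexose transporter and sensor genes, 6 were higher and 1 lower (median 0.28). HXT2, a high-affinity glucose transporter gene, had 13933, 10822, 16272 and 12172 against 6929, 6362, 5678 and 4402 (1.19 ± 0.20, adjusted p = 0.000561), with WT at 9428 to 17852. The glucose sensor gene SNF3 (0.83 ± 0.14, adjusted p = 0.000699) and MTH1, a corepressor of hexose transporter genes (1.25 ± 0.26, adjusted p = 0.00212), were higher as well. All 3 were below WT in H3L126H (log2 fold changes -1.24, -0.72 and -1.11).

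**Figure D4:**
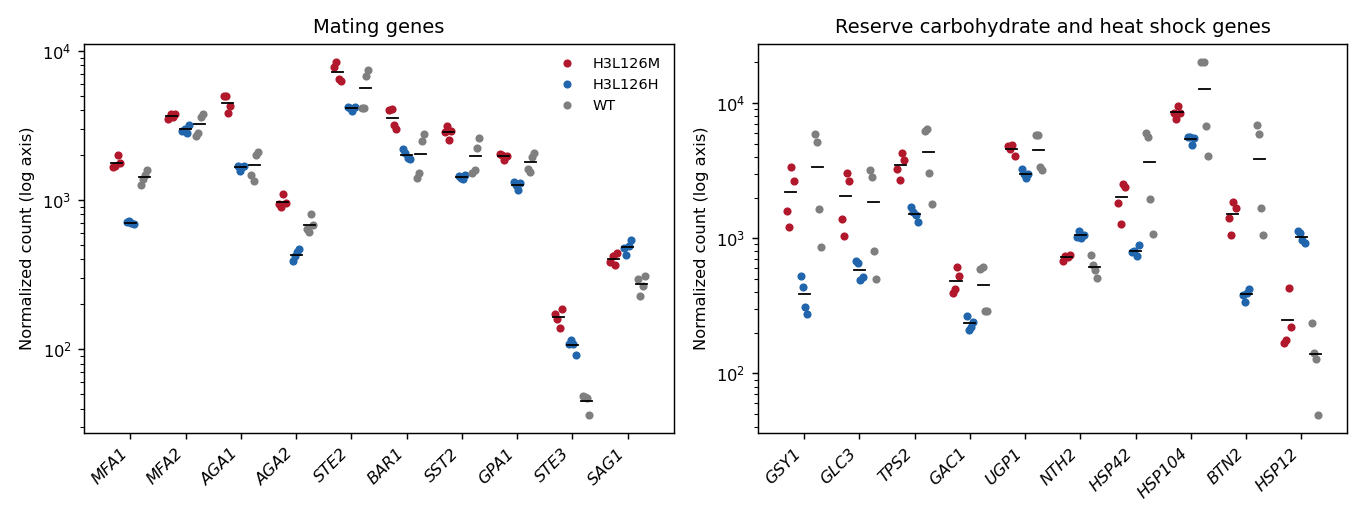
Points are normalized counts in single YPD libraries (log axis) of 10 mating genes on the left and 10 reserve carbohydrate and heat shock genes on the right, coloured by strain, with black bars for means of 4. Mating genes are tight within each mutant, whereas in GSY1, GLC3 and HSP42 the H3L126M and WT points spread over a wider range than the H3L126H points.

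Genes of amino acid synthesis were lower in H3L126M. Yeast assimilates sulfate into methionine through the MET genes, and Gcn4 drives most other amino acid pathways. Of 25 sulfur and methionine genes, 12 were lower and 0 higher (median -0.19). MET6, the methionine synthase gene, had 2625, 2594, 2558 and 1944 in H3L126M against 7372, 7022, 7502 and 5884 in H3L126H and 8939 to 10280 in WT (-1.52 ± 0.10, adjusted p = 5.96e-07). The sulfite reductase genes MET5 (-0.98 ± 0.10, adjusted p = 1.51e-05) and MET10 (-0.98 ± 0.09, adjusted p = 5.44e-06) and the methionine permease gene MUP1 (-0.96 ± 0.10, adjusted p = 1.42e-05) were lower too, and none of these 3 lies on a shifted chromosome. SAM3, the S-adenosylmethionine permease gene (chrXVI:22938-24701), had 413, 463, 423 and 283 against 1537, 1506, 1567 and 1527 (-1.96 ± 0.12, adjusted p = 2.3e-07), and WT at 932 to 1093 lay between.

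Of 48 genes controlled by Gcn4, 22 were lower and 2 higher (median -0.18). HIS1, the gene of the first enzyme of histidine synthesis (chrV:264892-265785), had 2957, 2961, 3179 and 3095 against 6698, 6631, 6808 and 6460 (-1.13 ± 0.06, adjusted p = 4.01e-08), and H3L126H overlapped WT (5670 to 6511). LYS2, for lysine synthesis (-0.82 ± 0.06, adjusted p = 6.49e-07), ILV6, for branched-chain amino acids (-0.72 ± 0.05, adjusted p = 7.09e-07), and TRP2, for tryptophan (-0.68 ± 0.06, adjusted p = 3.85e-06), followed. These 4 lie on chromosomes V, II, III and V. With chromosome medians removed they stood at -0.88, -0.41, -0.55 and -0.44, all still called, and 21 of the 48 were lower and 1 higher. TGACTC, the core of the Gcn4 site, occurred on either strand before 18 of the 22 lower genes (81.8%) and before 10.3% of all start codons. The list was chosen for known control by Gcn4, so this share describes the list. The match nearest to the start codon is shown in capitals for a pair of the lower genes.
HIS1: aagcttccaagtGAGTCAcctctaccgttg
TRP2: acagtgatttgcTGACTCattacgattttt
The windows are at chrV:265951-265980 (-) and chrV:337775-337804 (+).

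Of 26 purine and one-carbon genes, 9 were lower and 3 higher (median -0.12). ADE17, for the last steps of purine synthesis, had 1504, 1330, 1812 and 1779 against 3541, 3645, 3796 and 3176 (-1.14 ± 0.10, adjusted p = 4.51e-06). The glycine cleavage gene GCV2 (-0.98 ± 0.11, adjusted p = 3.67e-05) and the serine hydroxymethyltransferase gene SHM2 (-0.65 ± 0.08, adjusted p = 4.09e-05) were lower too. ADE17 and SHM2 were below WT in H3L126M (log2 fold changes -1.33 and -0.94), and GCV2 was above WT in H3L126H (0.94).

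Among genes of nutrient and metal uptake, more phosphate and iron genes were lower in H3L126M than higher, and copper genes were split. Of 28 phosphate (PHO) genes, 11 were lower and 1 higher (median -0.24). The acid phosphatase gene PHO5 had 657, 641, 592 and 581 against 1222, 1221, 1356 and 1394 (-1.07 ± 0.10, adjusted p = 7.47e-06), and both mutants were below WT at 2457 to 3327. PHM8, a phosphatase gene of the PHO regulon, had 309, 309, 440 and 445 against 1256, 1245, 1293 and 1306 (-1.76 ± 0.27, adjusted p = 0.000298). VTC1, for polyphosphate synthesis, was lower by -0.67 ± 0.06 (adjusted p = 4.99e-06), and the glycerophosphodiesterase gene GDE1 by -0.56 ± 0.08 (adjusted p = 0.00012). All 4 lie on chromosomes II, V and XVI. With chromosome medians removed GDE1 lost its call (-0.15, adjusted p = 0.19) and 8 members of the list were lower.

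Of 28 iron genes, 10 were lower and 3 higher (median -0.26). ISU1, the scaffold gene for iron-sulfur clusters, had 382, 391, 421 and 364 against 885, 886, 941 and 886 (-1.21 ± 0.07, adjusted p = 1.25e-07). The cell wall mannoprotein gene FIT2, for siderophore retention (-1.11 ± 0.19, adjusted p = 0.000626), and the biotin transporter gene VHT1 (-1.09 ± 0.17, adjusted p = 0.000387) were lower. FET4, the low-affinity iron transporter gene, was higher (0.68 ± 0.07, adjusted p = 1.86e-05), with both mutants below WT. The iron list was lower in YPEG as well, at 23 of 29 genes, with a median of -0.80.

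Of 24 copper genes, 3 were higher and 6 lower (median -0.02), shares of the order of the background. FRE7, a metalloreductase gene of the copper regulon, had 545, 761, 482 and 398 against 211, 274, 260 and 195 (1.22 ± 0.18, adjusted p = 0.000228), with WT at 175 to 234. CTR2, the vacuolar copper transporter gene (-0.49 ± 0.09, adjusted p = 0.000695), PCA1, a metal-exporting P-type ATPase gene (-0.72 ± 0.08, adjusted p = 3.2e-05), and SCO2, for copper delivery to cytochrome oxidase (-0.71 ± 0.13, adjusted p = 0.000802), were lower. Of the 6 lower genes, 5 lie on the shifted chromosomes, and SCO2 lost its call when chromosome medians were removed (-0.30, adjusted p = 0.11). CTR1, the high-affinity importer gene on chromosome XVI, overlapped between mutants (1305, 1459, 1228 and 1084 against 1037, 1345, 1075 and 1033, log2 fold change 0.18 ± 0.10, adjusted p = 0.191). Against the median of its chromosome it was higher (0.59, adjusted p = 0.0014). Neither metallothionein gene could be compared, since CUP1-1 and CUP1-2 reached at most 1 count in any of the 8 libraries.

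Genes of the cell wall were lower in H3L126M, at 19 of 35 genes with 2 higher (median -0.33), and 18 were lower with chromosome medians removed. CRH1, a chitin transglycosylase gene, had 5077, 4873, 4963 and 4607 against 8226, 8102, 8560 and 7961 (-0.75 ± 0.07, adjusted p = 4.38e-06), with WT at 4468 to 5314, overlapping H3L126M. The wall protein gene CCW14 (-0.55 ± 0.05, adjusted p = 4.76e-06), KDX1, a kinase-related gene of the wall stress response (-1.31 ± 0.14, adjusted p = 1.42e-05), and PIR3, for another wall protein (-1.78 ± 0.46, adjusted p = 0.00844), were lower too. CWP2, a major mannoprotein gene, was higher (0.54 ± 0.06, adjusted p = 1.6e-05).

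Mitochondrial genes gave small counts. Libraries were made from poly-A RNA, and of 19 mitochondrially encoded ORFs 10 passed the filter. Of these, 8 were lower in H3L126M and 0 higher (median -0.88). COX1, a cytochrome oxidase subunit gene, had 113, 96.7, 112 and 101 against 175, 240, 212 and 238 (-1.03 ± 0.16, adjusted p = 0.000264). The intron-encoded AI2 (-1.10 ± 0.17, adjusted p = 0.000274) overlaps COX1 and is not independent of it. VAR1, for a mitochondrial ribosomal protein, had 6.25, 10.6, 20.7 and 13.8 against 39.1, 64.4, 44.0 and 54.0 (-1.95 ± 0.33, adjusted p = 0.00059). Of 17 nuclear genes listed with the TCA cycle, 6 were lower and 1 higher. The list also holds DLD3 and PYC2, whose enzymes are not steps of the cycle itself. Of the 6 lower genes, 3 lie on shifted chromosomes. These are DLD3, a D-lactate dehydrogenase gene (-1.09 ± 0.07, adjusted p = 5.3e-07), the pyruvate carboxylase gene PYC2 (-0.72 ± 0.05, adjusted p = 1.33e-06) and the fumarase gene FUM1 (-0.57 ± 0.07, adjusted p = 3.67e-05). FUM1 lost its call once medians were removed (-0.16, adjusted p = 0.11). The lower genes elsewhere were ACO1 (-1.02, adjusted p = 4.87e-05), IDH2 (-0.60, adjusted p = 0.00518) and IDH1 (-0.49, adjusted p = 0.00972). With chromosome medians removed, 6 of the 17 were lower and 0 higher.

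Of 33 proteasome genes, 11 were lower and 0 higher (median -0.10). With chromosome medians removed, 13 of the 33 were lower and 0 higher (median -0.19), against 10.9% of all genes lower in that fit. PUP3, a core particle gene (-0.67 ± 0.06, adjusted p = 7.34e-06), then kept its call (-0.42). RPN7, a lid gene, did not (-0.11, adjusted p = 0.12). Of 49 Ty retrotransposon ORFs that passed the filter, 36 were higher and 1 lower (median 0.50), but these are near copies of one another and their reads cannot be assigned with certainty. The most evident was YIL082W-A on chromosome IX, with 1734, 1460, 1742 and 1936 against 672, 686, 745 and 711 (1.29 ± 0.08, adjusted p = 5.12e-07, unique share 36.4%).

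Other rises included those of CPD1, ANB1 and NDJ1. CPD1, a cyclic nucleotide phosphodiesterase gene (chrVII:984966-985685), had 317, 274, 380 and 287 against 92.3, 57.4, 78.1 and 90.9 (1.98 ± 0.20, adjusted p = 1.42e-05). ANB1, which encodes the hypoxic form of the translation factor eIF5A (chrX:524908-525381), had 353, 378, 415 and 271 against 106, 99.5, 108 and 139 (1.65 ± 0.14, adjusted p = 4e-06). In both genes H3L126H was below WT (log2 fold changes -2.42 and -1.73), and H3L126M did not pass the test against WT (-0.45 and -0.08). NDJ1, a meiotic telomere protein gene named for its small p (chrXV:116396-117454), had 624, 527, 614 and 557 against 192, 219, 228 and 244 (1.40 ± 0.09, adjusted p = 5.3e-07), and here H3L126M was above WT (1.02).

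The other large rises shared the uneven replicates of the reserve carbohydrate genes. MPC3, a mitochondrial pyruvate carrier gene, had 71.4, 67.0, 192 and 212 in H3L126M, 29.1, 23.4, 13.2 and 33.2 in H3L126H and 142, 107, 26.0 and 30.5 in WT (2.46 ± 0.59, adjusted p = 0.00559). ISF1 (1.99 ± 0.50, adjusted p = 0.00736), AIM17 (1.94 ± 0.47, adjusted p = 0.00581) and ROQ1, a regulator of the ubiquitin ligase Ubr1 (1.63 ± 0.37, adjusted p = 0.00417), were higher. TMA10 (2.04 ± 0.75, adjusted p = 0.0471) lost its call when any single mutant library other than H3L126M replicate 2 was left out (adjusted p up to 0.123, log2 fold change 1.70 to 2.28). Without H3L126M replicates 3 and 4, MPC3 was at 1.48 (adjusted p = 0.11), ISF1 at 1.38 (adjusted p = 0.11), BTN2 at 1.68 (adjusted p = 0.059), AIM17 at 1.55 (adjusted p = 0.069), TMA10 at 1.29 (adjusted p = 0.33) and ROQ1 at 1.33 (adjusted p = 0.055), so none of them passed the test.

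The remaining large falls were of several kinds. FDH1, a formate dehydrogenase gene with a near copy (unique share 15.8%), had 18.7, 10.6, 12.6 and 13.8 against 70.2, 91.3, 46.2 and 73.7 (-2.31 ± 0.25, adjusted p = 1.75e-05). YLR154C-G, whose sequence has no unique window, had 16.1, 7.44, 11.7 and 13.8 against 23.1, 117, 151 and 227 (-3.36 ± 0.58, adjusted p = 0.000676), the H3L126H libraries being widely spread. ECM13 (chrII:136688-137461) had 40.2, 68.0, 73.9 and 62.8 against 244, 200, 267 and 270 (-2.0 ± 0.29, adjusted p = 0.000195). TDA6 (-1.79 ± 0.18, adjusted p = 1.42e-05) and the membrane protein gene YRO2 (-1.66 ± 0.29, adjusted p = 0.000637) lie on XVI and II and kept their calls with medians removed (-1.38 and -1.25).

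Next, the same strain difference was taken in YPEG, in a fit of all 24 libraries. The YPEG libraries are separate samples of the same 2 strains. Over 5976 genes, the log2 fold changes of H3L126M over H3L126H in the 2 media had a Pearson r of 0.501, given as a description since genes are not independent. Of the 2132 genes called in YPD, 1738 (81.5%) had the same sign in YPEG, against 68.4% of all genes. Of these, 1151 had the same sign and were also called in YPEG. Over all genes tested in YPEG 43.1% were called in either direction, a share that takes no account of sign. Outside the 4 shifted chromosomes the share of same signs was 75.8% of 1345 genes. Of the 156 genes of at least 2-fold, 127 had the same sign.

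The difference between media was itself called at 982 of 6082 genes (16.1%), of which 588 had opposite signs in the 2 media, 96 of them with a call in each medium. The 4 with the smallest p and opposite signs were all lower in H3L126M in YPD and higher in YPEG. INO1, the inositol synthesis gene, had 148, 169, 148 and 131 in H3L126M and 207, 258, 271 and 281 in H3L126H in YPD (-0.77 ± 0.16, adjusted p = 0.0026), and its log2 fold change in YPEG was 2.37 (adjusted p of the difference 2.2e-10). ADE17 was at 0.95 in YPEG (adjusted p of the difference 3.6e-10), and GAP1, the general amino acid permease gene, at -0.93 ± 0.13 in YPD and 1.85 in YPEG (adjusted p of the difference 1.8e-09). ICL1, the isocitrate lyase gene of the glyoxylate cycle, was at -0.29 ± 0.10 in YPD (adjusted p = 0.0385) and 1.58 in YPEG (adjusted p of the difference 3.7e-08). Its call in YPD was lost without H3L126H replicate 1, 2 or 4 or H3L126M replicate 1, 2 or 4 (adjusted p up to 0.107).

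Some lists called lower in YPD leaned the other way in YPEG, where 19.7% of all genes were higher and 23.4% lower. Of the purine and one-carbon genes, 14 of 26 were higher and 1 lower in YPEG (median 0.31), of the TCA cycle genes 11 of 17 were higher and 2 lower (0.60), of the Gcn4-controlled genes 18 of 48 were higher and 10 lower (0.07), and of the PHO genes 9 of 28 were higher and 5 lower (0.15). The difference between media was called at 12 of the purine, 12 of the TCA cycle, 16 of the Gcn4-controlled and 10 of the PHO genes. In some lists the larger count was on the same side in both media. Of the sulfur genes 11 of 25 were lower and 2 higher, of the chaperone genes 13 of 29 were lower and 1 higher, of the mating genes 18 of 32 were higher and 2 lower, and of the Ty ORFs 37 of 49 were higher and 1 lower. The hexose transporter genes, with more members higher in YPD, had 1 of 21 higher and 5 lower in YPEG. Reserve carbohydrate genes had 3 of 17 higher and 2 lower, cell wall genes 9 of 35 higher and 12 lower, proteasome genes 3 of 33 higher and 11 lower, and copper genes 2 of 24 higher and 9 lower.

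Several genes described above were among those that differed between media. BTN2 was higher in YPD and lower in YPEG (-1.08), as was HXT2 (-1.5). HSP12 was at 0.03 in YPEG. GSY1 (1.32 in YPEG), CPD1 (1.66), AGA1 (1.13), NDJ1 (1.87) and SAM3 (-1.67) kept their direction and passed the test in both media, and the difference between media was not called at any of these 5.

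**Figure D5:**
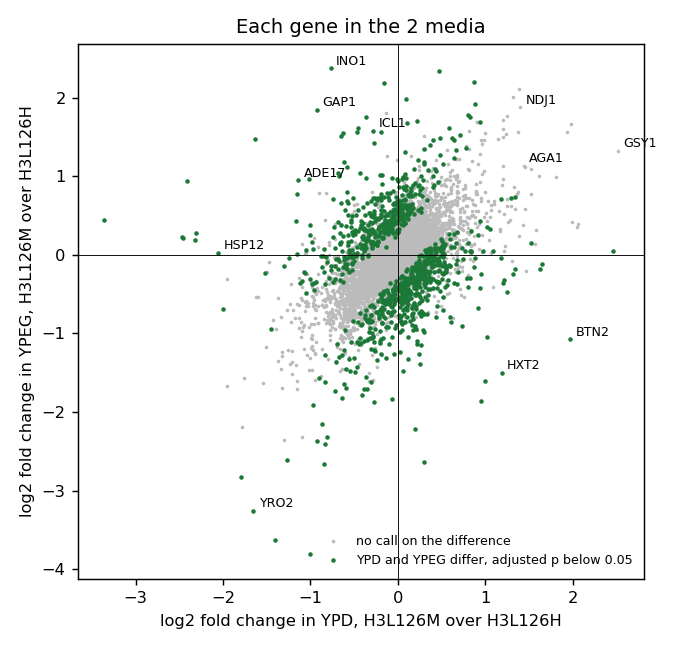
Each point is 1 of 5976 genes, placed by its log2 fold change of H3L126M over H3L126H in YPD (horizontal) and in YPEG (vertical), in green where the 2 differ at an adjusted p below 0.05. Most grey points run from lower left to upper right, while INO1, GAP1, ADE17 and ICL1 sit at the upper left and BTN2 and HXT2 at the lower right.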

How the data were processed

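Per the labels and the methods of the study, the authors extracted RNA with hot acid phenol, made stranded libraries from poly-A RNA, aligned reads with HISAT2 to the R64-1-1 (sacCer3) genome and counted them with featureCounts over 6692 ORFs. The deposited raw counts per ORF were the input here, and all 24 columns matched a library. A second deposited table, scaled with DESeq2 size factors, was not used. Of the ORFs, 6008 matched the reference annotation, and 210 tested genes had no position there.

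The 12 YPD libraries were fitted with edgeR 4.0.16 (quasi-likelihood test, TMM scaling, filterByExpr at a minimum count of 10) in R 4.3.3, with p adjusted by Benjamini-Hochberg over all genes tested. To give normalized counts, each library's counts were divided by its TMM-adjusted total and multiplied by the mean of these totals. Chromosome medians were compared with exact two-sided permutation tests, and the media with an interaction term over 24 libraries. DESeq2 1.42.0 and other settings were alternatives, of which leaving out H3L126M replicates 3 and 4 together and scaling on 12 chromosomes were added after seeing the data. The script was tested on simulated data.

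Genes named were the 10 largest rises and falls (called, at least 2-fold, not overlapping, mean of 50 or more in the higher strain), the 3 smallest p each way, histone and marker genes, up to 5 called members of each list described with members set against them, and 4 genes with opposite signs in the 2 media. Members and lists were chosen with earlier results of these data known.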

Additional observations from a re-analysis of the deposited data

Results flagged for a closer look

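In some genes named above 1 library stood apart from the other 3 of its strain, by a gap beyond the 95% limit of Dixon's test for 4 values. This was so in 11 of the 204 groups examined, where chance gives about 1 in 20. In H3L126M, TNA1 was at 2467 in replicate 4 against 2960 to 2997 in the other 3, and MET6 was at 1944 in replicate 4 against 2558 to 2625 in the other 3. GDE1 was at 848 in replicate 3 against 1044 to 1060 in the other 3, and PYC2 was at 4244 in replicate 4 against 4809 to 4840 in the other 3. In H3L126H, ILV6 was at 6111 in replicate 1 against 5638 to 5718 in the other 3, ISU1 was at 941 in replicate 3 against 885 to 886 in the other 3, and VHT1 was at 339 in replicate 1 against 432 to 439 in the other 3. TPS1 was at 3732 in replicate 3 against 3836 to 3852 in the other 3, HSP104 was at 4929 in replicate 3 against 5542 to 5590 in the other 3, and CTR1 was at 1345 in replicate 2 against 1033 to 1075 in the other 3. HSP26 was at 870 in replicate 1 against 1069 to 1075 in the other 3. All values are normalized counts, and no library was left out for them.

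The difference between the mutants differed between YPD and YPEG, by the interaction term at an adjusted p below 0.05, for 50 of the 102 named genes. Each value below is the YPD log2 fold change minus that in YPEG, with the pair of log2 fold changes, YPD first, in brackets, all from the fit of 24 libraries. Genes are sorted by the sign of the estimates, and some YPEG values did not pass the test. Examples in YPEG are HSP12 (adjusted p = 0.951), HSP10 (0.853), PYC2 (0.424), MPC3 (0.918) and CCW14 (0.855). The sign was negative in YPD and positive in YPEG at YLR154C-G -3.78 (-3.34 and 0.44), FDH1 -2.56 (-2.29 and 0.28), HSP12 -2.06 (-2.03 and 0.03), HTZ1 -0.55 (-0.33 and 0.21), HHO1 -0.59 (-0.53 and 0.06) and HSP10 -0.48 (-0.45 and 0.03). The same signs were found at ADE17 -2.06 (-1.12 and 0.95), GCV2 -1.12 (-0.96 and 0.16), SHM2 -1.29 (-0.63 and 0.66), VTC1 -0.92 (-0.64 and 0.28), PYC2 -0.79 (-0.70 and 0.09) and FUM1 -0.81 (-0.55 and 0.26). Further such genes were SAG1 -0.52 (-0.25 and 0.28), INO1 -3.12 (-0.75 and 2.37), GAP1 -2.75 (-0.90 and 1.85) and ICL1 -1.84 (-0.26 and 1.58). It was positive in YPD and negative in YPEG at BTN2 3.07 (1.99 and -1.08), ANB1 1.79 (1.67 and -0.12), ROQ1 1.83 (1.65 and -0.18), HXT2 2.71 (1.21 and -1.5), MTH1 1.74 (1.27 and -0.47) and FET4 1.08 (0.70 and -0.38). These signs also held at FRE7 1.56 (1.24 and -0.32), CTR1 0.95 (0.20 and -0.75) and HSP42 1.58 (1.34 and -0.24). It was negative in both media at ECM13 -1.29 (-1.98 and -0.69), TDA6 1.06 (-1.77 and -2.83), YRO2 1.63 (-1.63 and -3.26), HHF1 -0.48 (-1.42 and -0.94), HIS1 -0.74 (-1.10 and -0.36) and HHT2 -0.40 (-0.57 and -0.17). Both values were likewise negative at HHF2 -0.69 (-0.78 and -0.09), SSA3 0.81 (-0.81 and -1.62), MET6 -1.26 (-1.49 and -0.23), MET10 -0.59 (-0.96 and -0.37), ILV6 -0.55 (-0.69 and -0.15) and TRP2 -0.48 (-0.66 and -0.18). The same held for PHO5 -0.83 (-1.05 and -0.22), CCW14 -0.51 (-0.53 and -0.02), KDX1 -1.15 (-1.28 and -0.14), AI2 -0.74 (-1.08 and -0.33) and HSP26 2.25 (-1.38 and -3.63). It was positive in both media at MPC3 2.44 (2.49 and 0.05), MFA1 0.63 (1.36 and 0.73), YIL082W-A 0.59 (1.31 and 0.72), AGA2 0.49 (1.20 and 0.72), BAR1 -0.91 (0.85 and 1.76) and MFA2 -0.85 (0.32 and 1.17). Both were positive as well at BNA7 0.82 (0.87 and 0.04) and SNF3 0.80 (0.85 and 0.05).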

How the results depend on the processing

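None of the 96 named genes that were called changed sign under any alternative run, and 73 kept their call under all of those with an adjusted p below 0.05. TPS1, not called, moved from -0.04 to 0.37 when chromosome medians were removed. Removing chromosome medians gave 1238 calls, 584 higher and 654 lower. Leaving out H3L126M replicates 3 and 4 together gave 1409 calls, with 591 higher and 32 of them at least 2-fold, and 14 named genes lost their call. An adjusted p below 0.01 gave 1292 calls, 515 of them higher. Scaling on the other 12 chromosomes gave 624 higher, and a mean of at least 100 counts left 53 genes at least 2-fold lower. Only the 8 libraries compared gave 2803 calls, and DESeq2 gave 2231. Leaving out 1 library at a time gave 1708 to 2421 calls, 727 to 1153 higher, 981 to 1268 lower, 46 to 87 at least 2-fold higher and 84 to 98 at least 2-fold lower.

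For the difference between media, an adjusted p below 0.01 gave 505 calls, 263 higher and 242 lower. Leaving out 1 library gave 812 to 848 calls, with 347 to 479 higher and 355 to 496 lower. H3L126M replicates 1, 2 and 3 gave the fewest higher (347, 362 and 351, against 546). DESeq2 gave 482 higher and 621 lower, where edgeR gave 546 and 436. With means in place of medians, chromosome VIII (-0.015, adjusted p = 0.286), X (-0.025, adjusted p = 0.105) and XII (0.012, adjusted p = 0.261) no longer passed the test. Without 1 library, the difference was 0.123 to 0.131 on XV and 0.020 to 0.029 on XIII. The cause of these changes was not tested.

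Across genes, replicate numbers did not pair the libraries of the mutants. At GSY1 and GLC3, however, replicates 1 and 2 split from replicates 3 and 4 in both mutants, in opposite directions. The deviations of same-numbered libraries of the mutants from their strain means correlated at -0.039 to 0.009, and 0 of 4 H3L126M libraries correlated best with their own number. The fit with a replicate block gave 1953 calls, 875 higher and 1078 lower (58 and 88 at least 2-fold), and 888 for the difference between media. TMA10, HTB1 and HSP42 lost their call under the block. Errors were wide at some genes with few counts, such as VAR1 (SE 0.33). They were wider still at some well-counted genes with uneven replicates, such as TMA10 (SE 0.75) and GSY1 (SE 0.54).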
